A study of Rattus norvegicus with 12 samples.

Results

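A set of 8 enzymes of steroid metabolism, Hsd3b2, Cyp2c11, Akr1b7, Hsd11b1, Hsd17b2, Hsd17b11, Srd5a1 and Cyp11a1, were followed in rat kidney across age and caloric restriction. Every gene probe whose platform annotation or description named one of these genes was taken, which gave 9 probes for the 8 genes, among 33849 gene probes that name 12723 genes. Hsd3b2 had 2 probes and each of the other enzymes had 1. Kidney RNA of male Fischer rats (strain F344) was hybridised to 12 single-colour CodeLink oligonucleotide arrays, 4 per group. The groups were rats of 24 months under caloric restriction, rats of 24 months fed ad libitum, and young rats of 4 months fed ad libitum. Food was cut by 10% at 10 weeks of age, by 25% at 15 weeks and by 40% once the rats were 4 months old. The restricted rats had therefore been on the reduced diet for most of their lives, and the young rats were about as old as the restricted rats when the final diet step began. A young restricted group was not analysed here.

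Steroid hormones are made from cholesterol in the adrenal cortex and the gonads and are then changed again in the tissues they reach. In the kidney, local enzymes switch glucocorticoids between active and inactive forms and convert or clear androgens and oestrogens. Cyp11a1 cuts the side chain of cholesterol to give pregnenolone, the entry step of all steroid hormone synthesis, and Hsd3b2 belongs to the family that turns pregnenolone and its relatives into progesterone-type steroids. Akr1b7 is an aldo-keto reductase best known from mouse adrenal and vas deferens, where it reduces the aldehyde released by side chain cleavage. Srd5a1 turns testosterone into the stronger androgen dihydrotestosterone, and Hsd11b1 regenerates active glucocorticoid from its inactive ketone. Hsd17b2 oxidises oestradiol and testosterone to weaker ketones, Hsd17b11 is a related dehydrogenase found on lipid droplets, and Cyp2c11 is the male-specific testosterone hydroxylase of rat liver.

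The enzymes fell into 3 patterns. One of the 2 Hsd3b2 probes and the Cyp2c11 probe were above background in young kidneys and not above it in either group of old kidneys. A probe was tested only if above background on at least 4 arrays. These 2 probes met this only through the 4 young arrays, so their direction was fixed by that choice. The other Hsd3b2 probe was above background in all 3 groups and lower in both old ones. Akr1b7 went the other way, with about 717 units of normalised intensity in restricted old kidneys, 91.9 in ad libitum old kidneys and 48.3 in young kidneys (medians of 4 arrays). Hsd11b1 was lower in both old groups by a smaller amount. Hsd17b2, Srd5a1 and Cyp11a1 passed the test in no comparison, and Hsd17b11 passed it once, for a small difference.

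Promoter windows are shown for the 3 enzymes with the largest fitted differences. Hsd3b2 GE1146578 and the Cyp2c11 probe could be tested only through the 4 young arrays. Their shared direction was thus fixed by that choice and does not link the 2 genes. The windows come from RefSeq (build GRCr8), cover 250 bases before to 50 bases after a transcript start, and run 5′ to 3′ on the gene's strand. The Hsd3b2 window lies at chr2:188794020-188794319 on the minus strand, the Cyp2c11 window at chr1:246174966-246175265 on the plus strand and the Akr1b7 window at chr4:64043720-64044019 on the plus strand. The Hsd3b2 window lies inside the annotated span of the gene (188784614 to 188812535) and not at its 5′ end. Whether either Hsd3b2 probe reads a transcript from this start was not tested. Capitals mark matches to 3 motifs searched on both strands. The half-site bound by the glucocorticoid receptor and related steroid receptors is TGTTCT, which reads AGAACA when it lies on the opposite strand. The site of the steroidogenic factor SF-1 is AAGGTCA, which reads TGACCTT when it lies on the opposite strand. The TATA box was searched as TATAAA, which reads TTTATA when it lies on the opposite strand. The motifs do not overlap in these windows.
Hsd3b2: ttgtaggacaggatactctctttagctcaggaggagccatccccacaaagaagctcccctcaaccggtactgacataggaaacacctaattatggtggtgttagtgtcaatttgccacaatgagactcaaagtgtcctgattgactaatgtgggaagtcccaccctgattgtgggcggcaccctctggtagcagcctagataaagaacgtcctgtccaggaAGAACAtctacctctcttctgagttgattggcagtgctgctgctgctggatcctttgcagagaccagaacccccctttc
Cyp2c11: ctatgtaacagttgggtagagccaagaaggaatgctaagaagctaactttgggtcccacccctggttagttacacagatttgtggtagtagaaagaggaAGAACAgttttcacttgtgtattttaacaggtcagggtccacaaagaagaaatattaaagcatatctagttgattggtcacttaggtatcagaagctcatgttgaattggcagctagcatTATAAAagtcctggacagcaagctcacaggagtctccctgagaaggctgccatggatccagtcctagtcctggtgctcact
Akr1b7: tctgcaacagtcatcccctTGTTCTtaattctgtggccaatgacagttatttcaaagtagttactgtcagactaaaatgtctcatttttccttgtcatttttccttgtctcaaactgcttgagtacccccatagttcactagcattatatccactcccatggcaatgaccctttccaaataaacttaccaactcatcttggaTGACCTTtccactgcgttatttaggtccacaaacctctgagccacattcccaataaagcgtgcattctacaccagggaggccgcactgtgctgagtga
Each of the 3 windows held 1 hormone half-site, which began at base -29 from the start in Hsd3b2, -151 in Cyp2c11 and -231 in Akr1b7. A match to this half-site occurred in 20.7% of 33469 promoter windows of the same length. The SF-1 letters were found in the Akr1b7 window at -48 and occurred in 4.61% of all windows. The TATA box was found in the Cyp2c11 window at -31 and occurred in 14.2% of all windows. A window was on hand for 6 of the 8 genes, and those of Hsd17b11, Srd5a1 and Cyp11a1 held none of these letters. The matches describe the sequence and say nothing on binding.

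Before the enzymes are compared, the independence of the arrays needs stating. The labels describe the arrays of a group as biological replicates, but 10 of the 18 pairs of arrays within a group differed by so little that they were joined. Their spread over 9026 bright probes was 0.0887 to 0.137 on the log2 scale, within the upper 99.5% limit of the spread between repeat spots on one array, whereas the other 8 pairs of the same group differed by 0.161 to 0.366. The joined arrays were restricted 1 with 3, restricted 2 with 4, all 4 ad libitum arrays, young 1 with 2, and young 3 with 4, so that 5 samples remained. The ad libitum group then consisted of 1 sample, which is assumed to vary like the other groups. Means, standard errors and log2 differences below are from limma over these 5 samples. Calls are from limma over the 12 arrays at a Benjamini-Hochberg adjusted p under 0.05 over 25398 probes tested, and these p-values reflect array-to-array scatter only, which may be technical. For the 9 probes, the adjusted p over samples of the same comparison is given beside that over arrays; p-values under other settings are over arrays. Of the probes on an array, 72.5% to 74.8% were above background in the restricted group, 71.5% to 73.7% in the ad libitum group and 64.2% to 69.9% in the young group. The ad libitum arrays were scanned apart from the rest, so that scan and this group cannot be told apart. By the slide numbers in the file headers, the arrays came from 2 slide series, one with the ad libitum arrays and restricted arrays 3 and 4, the other with restricted arrays 1 and 2 and the young arrays, so no series held both ad libitum and young kidneys.

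**Figure D1:**
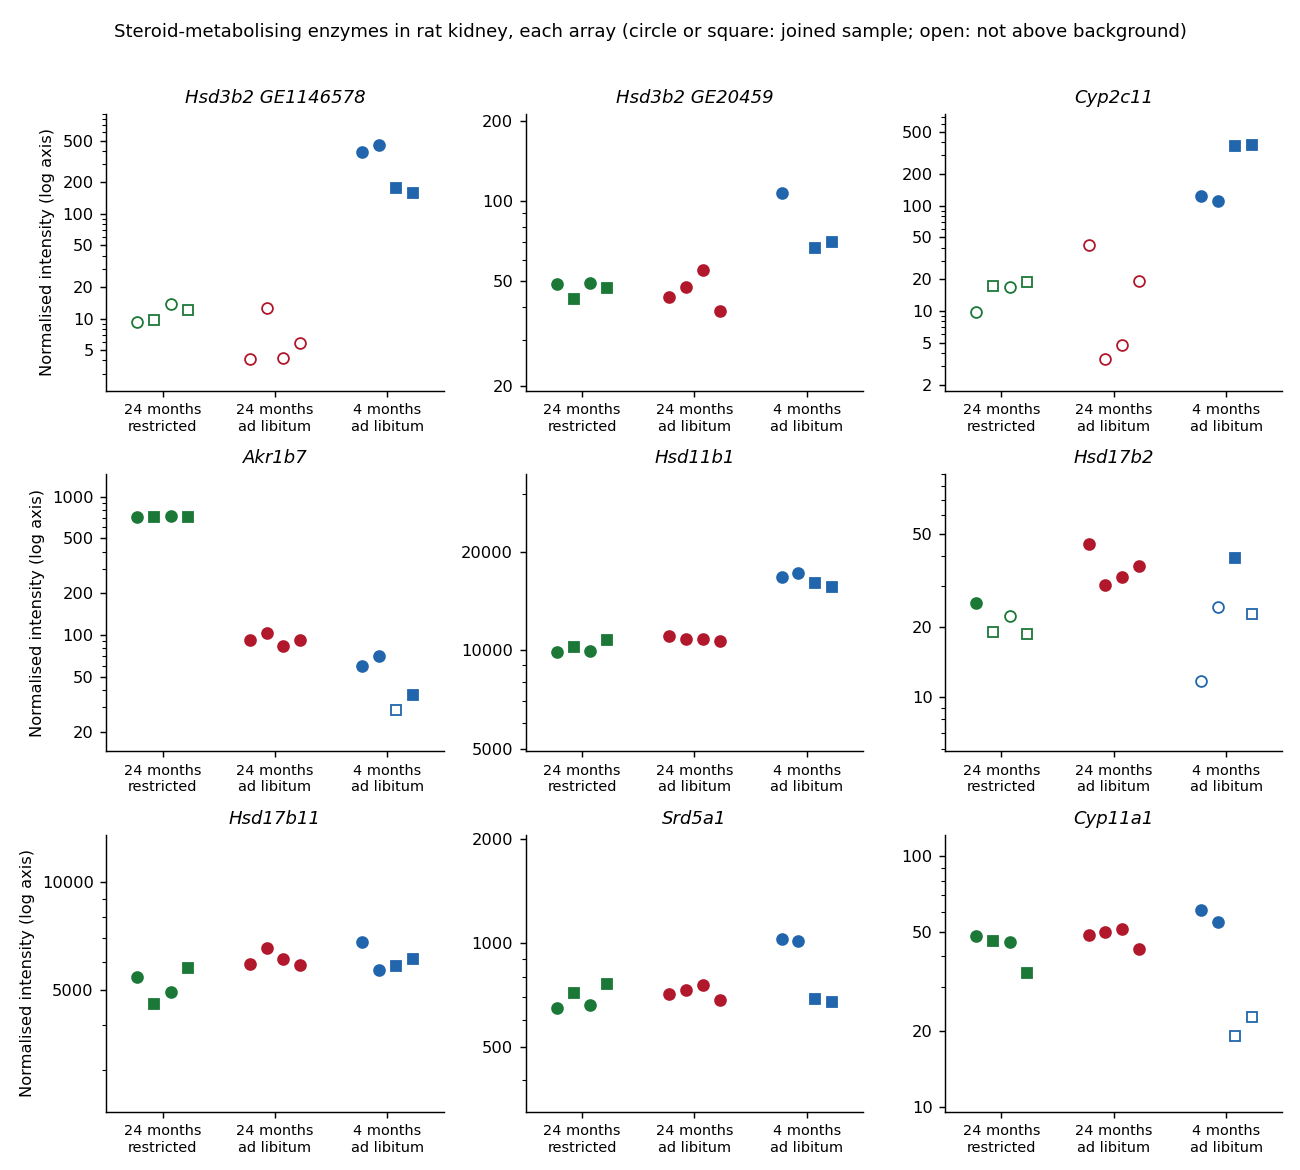
Normalised intensity of the 9 probes on every array, on a log axis that differs between panels. Groups run from restricted to ad libitum to young, circles and squares are the joined samples of a group, and open symbols were not above background. Hsd3b2 (GE1146578) and Cyp2c11 are filled only in the young group, Akr1b7 is at 712 to 730 on the 4 restricted arrays, and the 2 young samples stand apart for Hsd3b2, Cyp2c11, Srd5a1 and Cyp11a1.

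Across the 9 probes, 1 was called higher and 4 lower in ad libitum old kidneys than in young kidneys. Among all probes tested, 20.9% were called higher and 27.1% lower in that comparison. The median log2 difference of the 9 probes was -0.21 and that of all probes was -0.05. In restricted against ad libitum old kidneys 1 of the 9 was called higher and 8 were not called, where 7.39% of all probes were called higher and 5.98% lower. The median of the 9 probes was then -0.05 and that of all probes 0.01. In restricted against young kidneys 1 was called higher and 5 were called lower, where the shares over all probes were 19.7% and 24.6%. The medians were -0.26 for the 9 probes and -0.02 for all. With about 4 to 5 in 10 of all probes called in each comparison with young kidneys, a count of 5 or 6 among 9 does not set the enzymes apart from the array. The probes Hsd3b2 GE1146578 and Cyp2c11 GE21637 passed the filter on dim probes only through the 4 young arrays, and so had to differ to be tested.

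Over the 5 samples far fewer probes were called. In ad libitum against young kidneys limma called 0.114% of probes in either direction and none of the 9, of which 4 had an unadjusted p under 0.05. In restricted against young kidneys it called 0.91% of probes and 2 of the 9, Akr1b7 and Hsd3b2 GE1146578. In restricted against ad libitum kidneys it called 0 of 25398 probes (0%), of which 1207 had an unadjusted p under 0.05 against 3397 called over the 12 arrays, and 1 of the 9 enzyme probes, Akr1b7, had an unadjusted p under 0.05. The comparisons share groups (both comparisons with young kidneys use the same 4 young arrays), so the values are set side by side and not counted as separate evidence.

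**Figure D2:**
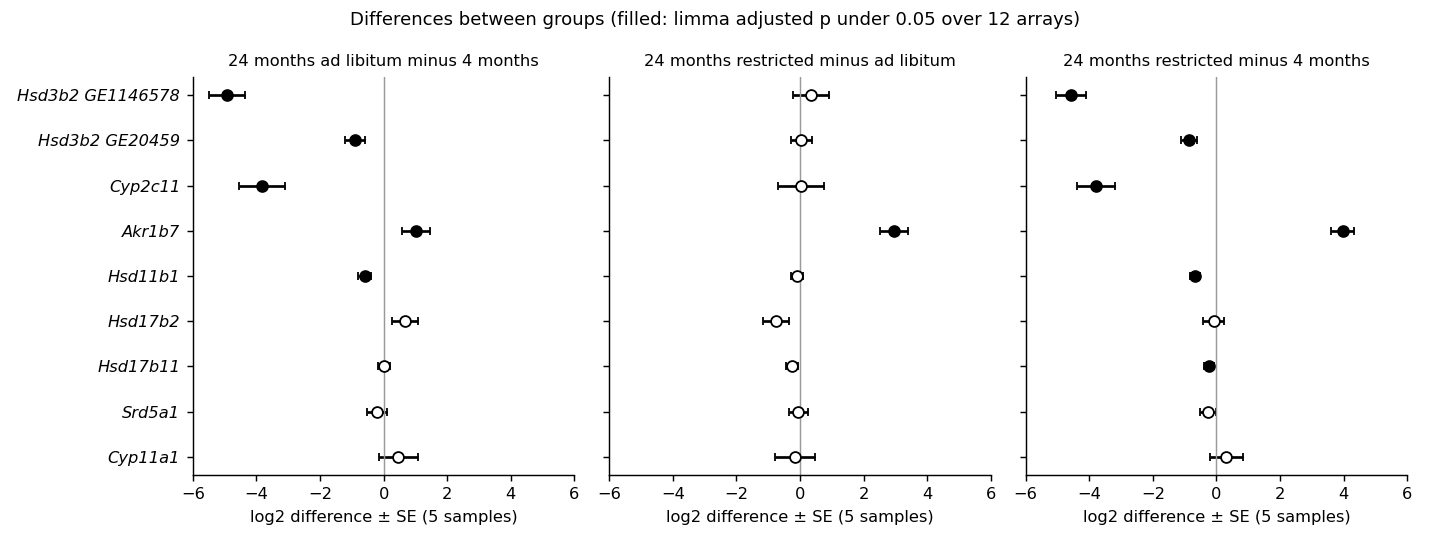
Log2 differences of the 9 probes in the 3 comparisons (the panel titles give the direction), with bars of 1 SE over 5 samples. Filled points passed limma's adjusted threshold over 12 arrays. Hsd3b2 GE1146578 and Cyp2c11 lie at or below -3.78 in both comparisons with young kidneys and were not above background in either old group, so that their points between the old groups carry no measured difference, and Akr1b7 lies at 2.96 and 3.97 in the comparisons of restricted kidneys.

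Hsd3b2 was lower in old than in young kidneys at both probes. Its probe GE1146578 read 9.34, 9.62, 13.8 and 12.2 units of normalised intensity on the 4 restricted arrays. It read 4.12, 12.7, 4.19 and 5.91 on the ad libitum arrays and 390, 453, 175 and 159 on the young arrays. All 8 arrays of old kidneys were not above background, all 4 young arrays were, and the old groups overlapped each other but not the young group. The probe passed the filter only through the 4 young arrays, so its direction and lack of overlap are no support under any setting below. Ad libitum kidneys were at least 13.1-fold lower than young ones, a bound computed against the lowest signals that counted as above background on the dim arrays. The fitted log2 difference was -4.92 ± 0.57 (SE over 5 samples), with an adjusted p of 8.67e-07 over arrays and 0.0675 over samples in limma. Restricted kidneys were at least 14.0-fold lower than young ones, with a log2 difference of -4.58 ± 0.46 and an adjusted p of 1.85e-06 over arrays and 0.0428 over samples. With a floor 4 times as high, the fitted difference was -3.10 in both comparisons (adjusted p 7.1e-06 and 7.98e-06), so the fitted size depends on the floor. Between the old groups no fold can be given, since both were at background.

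The other Hsd3b2 probe, GE20459, also fell, by much less. It read 48.9, 42.8, 49.2 and 47.0 on restricted arrays, 43.4, 47.4, 54.9 and 38.6 on ad libitum arrays, and 107, 66.4 and 69.9 on young arrays 1, 3 and 4. The spot of young array 2 carried an irregular flag and was left out. Both old groups lay below all young values, and the old groups overlapped each other. The log2 difference was -0.90 ± 0.33 for ad libitum against young kidneys (adjusted p 0.00362 over arrays and 0.277 over samples) and -0.86 ± 0.27 for restricted against young kidneys (0.00499 and 0.162). With slide series as a block, the first lost its call (adjusted p 0.0804), and within the one series that held restricted and young arrays the second lost its own (log2 difference -0.79, adjusted p 0.0999). The direction of GE1146578 was fixed by its choice through the young arrays, so its shared direction with GE20459 is no support. The probes disagree on the size. The rat Hsd3b genes are near-identical copies, and which of them each probe reads was not tested. Hsd3b5, named here for its relation to Hsd3b2 after its values were seen, had log2 differences of -0.10 ± 0.23 in ad libitum and -0.12 ± 0.19 in restricted against young kidneys and was not called.

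Cyp11a1, the step before Hsd3b2 in steroid synthesis, was dim, and whether it followed Hsd3b2 was not tested. It read 48.3, 45.9, 45.3 and 34.3 on restricted arrays and 48.4, 49.7, 51.4 and 42.7 on ad libitum arrays. The young arrays read 61.1, 54.5, 19.1 and 22.8, the last 2 of them not above background. The old values lay between those of the 2 young samples, and no comparison was called. The log2 difference was 0.47 ± 0.62 for ad libitum against young kidneys (adjusted p 0.264 over arrays and 0.709 over samples), 0.31 ± 0.51 for restricted against young kidneys (0.465 and 0.732) and -0.15 ± 0.62 for restricted against ad libitum kidneys (0.819 and 1).

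Akr1b7 was the only one of the 9 probes called between the old groups over arrays, and it was higher under restriction. It read 712, 719, 730 and 716 on restricted arrays, 91.4, 104, 83.1 and 92.3 on ad libitum arrays, and 60.0, 70.0, 28.9 and 36.7 on young arrays. The 28.9 of young array 3 was not above background. The 3 groups did not overlap, and the 4 restricted values lay closer together than those of either other group. Restricted kidneys were 7.79-fold higher than ad libitum kidneys, a log2 difference of 2.96 ± 0.44 (SE over 5 samples), with an adjusted p of 1.67e-05 over arrays and 0.545 over samples in limma. Against young kidneys the restricted group was 15.7-fold higher, a log2 difference of 3.97 ± 0.36, with an adjusted p of 3.06e-07 over arrays and 0.0359 over samples. Ad libitum kidneys were 2.01-fold higher than young kidneys (log2 difference 1.01 ± 0.44, adjusted p 0.00429 over arrays and 0.339 over samples), and this call was lost with slide series as a block (adjusted p 0.137).

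Each restricted sample had an array in both slide series (1 with 3, 2 with 4). A value within one series therefore comes from the same samples and is no separate evidence. The Akr1b7 difference between the old groups was also taken within a series. Within the one slide series that held both old groups (restricted arrays 3 and 4 and the 4 ad libitum arrays), it was 2.97, with an adjusted p of 0.000116 over arrays. Within the series that held restricted arrays 1 and 2 and the young arrays, the difference against young kidneys was 3.96, with an adjusted p of 0.0047. Because the ad libitum arrays form 1 sample and 1 scan, the difference between the old groups cannot be told apart from either. Restricted and young arrays share a scan. Of the marker genes of the loop of Henle, distal tubule and collecting duct, 11 of 12 had a value on every array and summed to 47981 to 50346 units on restricted arrays, 33339 to 37623 on ad libitum arrays and 38423 to 45176 on young arrays. Of the 12, 3 were called higher and none lower in restricted than in ad libitum kidneys, where 5.61% of all genes were called higher and 6.72% lower. Of the 15 proximal tubule genes with a probe, 11 had a value on every array and summed to 64219 to 70457 on restricted arrays, 90244 to 92661 on ad libitum arrays and 78379 to 84420 on young arrays, and none of the 15 was called higher and 4 lower in restricted than in ad libitum kidneys. The 4 were Aqp1 (log2 difference -1.62), Pck1 (-1.09), Cyp2e1 (-0.68) and Slc22a7 (-0.34). Slc34a1, Lrp2, Slc7a13 and Slc13a3, also among the bright genes of this list, differed by -0.09 to 0.04 and were not called. A sum of intensities follows its brightest genes. The part of these cell types in the Akr1b7, Hsd17b2 and Hsd17b11 results was not tested. In whole tissue, fewer cells of a type and less RNA per cell cannot be told apart, here and for every gene below.

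Srd5a1, the androgen-activating reductase, was measured on all 12 arrays. Its probe was matched by a description that names the enzyme without an isoenzyme number. It read 650, 718, 662 and 761 on restricted arrays, 711, 732, 758 and 685 on ad libitum arrays, and 1030, 1015, 687 and 676 on young arrays. Young sample 1 and 2 lay above all old values, and young sample 3 and 4 lay among them. The log2 difference was -0.21 ± 0.31 for ad libitum against young kidneys (adjusted p 0.233 over arrays and 0.732 over samples), -0.26 ± 0.25 for restricted against young kidneys (0.15 and 0.553) and -0.05 ± 0.31 between the old groups (0.862 and 1). The restricted against young difference was called under array median scaling (log2 difference -0.60, adjusted p 0.0234), in the deposited table (-0.59, 0.0295), without young array 4 (-0.36, 0.0436) and without young arrays 3 and 4 (-0.56, 0.000193).

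Hsd11b1, which regenerates active glucocorticoid, was among the bright probes and fell in both old groups. It read 9853, 10244, 9954 and 10723 on restricted arrays, 11034, 10799, 10860 and 10705 on ad libitum arrays, and 16721, 17221, 16005 and 15615 on young arrays. All 8 old values lay below all 4 young values, and the old groups overlapped. Ad libitum kidneys were lower than young ones by a log2 difference of -0.59 ± 0.20 (adjusted p 1.53e-05 over arrays and 0.254 over samples), so that young kidneys were 1.51-fold higher. Restricted kidneys were lower than young ones by -0.68 ± 0.16 (adjusted p 5.87e-06 and 0.113). Between the old groups the difference was -0.09 ± 0.20 (0.358 and 1). The size depended on the scaling: under array median scaling the difference was -1.27 in ad libitum and -1.56 in restricted against young kidneys (adjusted p 0.000114 and 2.73e-05), where the median of all probes was -0.22 and -0.26. The 2 young samples differed by 1.07-fold for this enzyme, and within one slide series the restricted against young difference was -0.71 with an adjusted p of 0.0127.

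Hsd17b2, which inactivates oestradiol and testosterone, was near background. It read 25.3, 19.0, 22.2 and 18.5 on restricted arrays, of which the first alone was above background. It read 45.1, 30.3, 32.7 and 36.4 on ad libitum arrays, all above background, and 11.7, 24.3, 39.4 and 22.6 on young arrays, of which the third alone was. The ad libitum values lay above all restricted values and overlapped the young ones. The log2 difference between restricted and ad libitum kidneys was -0.76 ± 0.40 (adjusted p 0.118 over arrays and 1 over samples). It was called within the slide series that held both groups (log2 difference -0.82, adjusted p 0.0259) and under array median scaling (-0.91, adjusted p 0.0371). The difference between ad libitum and young kidneys was 0.67 ± 0.40 (0.079 and 0.438), and between restricted and young kidneys -0.09 ± 0.33 (0.826 and 0.886).

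Hsd17b11, the lipid droplet dehydrogenase, was bright, and its differences depended on the scaling. It read 5441, 4574, 4941 and 5780 on restricted arrays, 5917, 6544, 6110 and 5869 on ad libitum arrays, and 6802, 5694, 5829 and 6120 on young arrays. The restricted values lay below all ad libitum values, and 1 of them lay among the young values. The only call was for restricted against young kidneys, at -0.24 ± 0.16 (adjusted p 0.0462 over arrays and 0.396 over samples), and it was lost without 5 of the 8 single arrays (adjusted p 0.0543 to 0.131). The difference between ad libitum and young kidneys was 0.00 ± 0.19 (0.988 and 0.996). Under array median scaling, which moved the median of all probes to -0.22 in this comparison, it was -0.56 and called (adjusted p 0.0143). Under the same scaling the difference between restricted and young kidneys was -0.98 (adjusted p 5e-04), where the median of all probes was -0.26. The difference between the old groups was -0.24 ± 0.19 (0.1 and 1).

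Cyp2c11, the male-specific testosterone hydroxylase, was at background in old kidneys. It read 9.81, 17.2, 16.8 and 18.9 on restricted arrays, 42.1, 3.51, 4.72 and 19.2 on ad libitum arrays, and 125, 111, 372 and 374 on young arrays. None of the 8 old arrays was above background, all 4 young arrays were, and the old groups overlapped each other but not the young group. The probe passed the filter only through the 4 young arrays, so its direction and lack of overlap are no support under any setting below. Ad libitum kidneys were at least 8.57-fold lower than young ones (fitted log2 difference -3.82 ± 0.72, adjusted p 0.000352 over arrays and 0.13 over samples). Restricted kidneys were at least 11.1-fold lower (fitted log2 difference -3.78 ± 0.59, adjusted p 0.000398 and 0.0685). With a floor 4 times as high, the fitted differences were -2.65 and -2.77 (adjusted p 0.000138 and 0.000107). Within one slide series, the restricted against young difference was -4.01 with an adjusted p of 0.0166. Rat Cyp2c genes resemble each other closely, and which of them the probe reads was not tested. The 4 other Cyp2c genes with a tested probe, Cyp2c6v1, Cyp2c7, Cyp2c22 and Cyp2c23, named for this relation after their values were seen, had log2 differences of -0.11 to 0.20 in ad libitum against young kidneys and were not called.

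The 2 young samples differed from each other for several enzymes, and for Cyp11a1, Srd5a1 and Hsd17b2 by more than either old group differed from the young mean. Young arrays 1 and 2 exceeded arrays 3 and 4 by 2.52-fold for Hsd3b2 GE1146578, 1.57-fold for Hsd3b2 GE20459, 2.76-fold for Cyp11a1, 1.99-fold for Akr1b7 and 1.50-fold for Srd5a1. Cyp2c11 and Hsd17b2 ran the other way, with arrays 3 and 4 higher by 3.17-fold and 1.77-fold. The 2 restricted samples differed by 1.05-fold for Hsd3b2 GE1146578, 1.18-fold for Cyp11a1, 1.01-fold for Akr1b7 and 1.13-fold for Srd5a1. They differed by 1.26-fold for Hsd17b2 and by 1.40-fold for Cyp2c11, which was at background there. Restricted arrays 2 and 4 were on top for Srd5a1 and Cyp2c11. Without young arrays 1 and 2, Cyp11a1 was called higher in ad libitum than in young kidneys (log2 difference 1.20, adjusted p 0.000114). Without young arrays 3 and 4 it was not called (-0.27, adjusted p 0.113), Srd5a1 was called lower (-0.50, adjusted p 0.000355) and Hsd17b2 was called higher (1.08, adjusted p 0.00602). Hsd17b2 was also called without young array 3 alone (0.94, adjusted p 0.00927). In restricted against young kidneys, Cyp11a1 was called in opposite directions, higher without young arrays 1 and 2 (1.05, adjusted p 0.000291) and lower without young arrays 3 and 4 (-0.42, adjusted p 0.0224). Neither direction holds for both young samples in Cyp11a1 or Srd5a1. For Akr1b7 and Hsd11b1 the direction and the call over arrays were the same against each young sample. Hsd3b2 GE1146578 and Cyp2c11 were lower against each, which their choice through the young arrays had fixed.

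**Figure D3:**
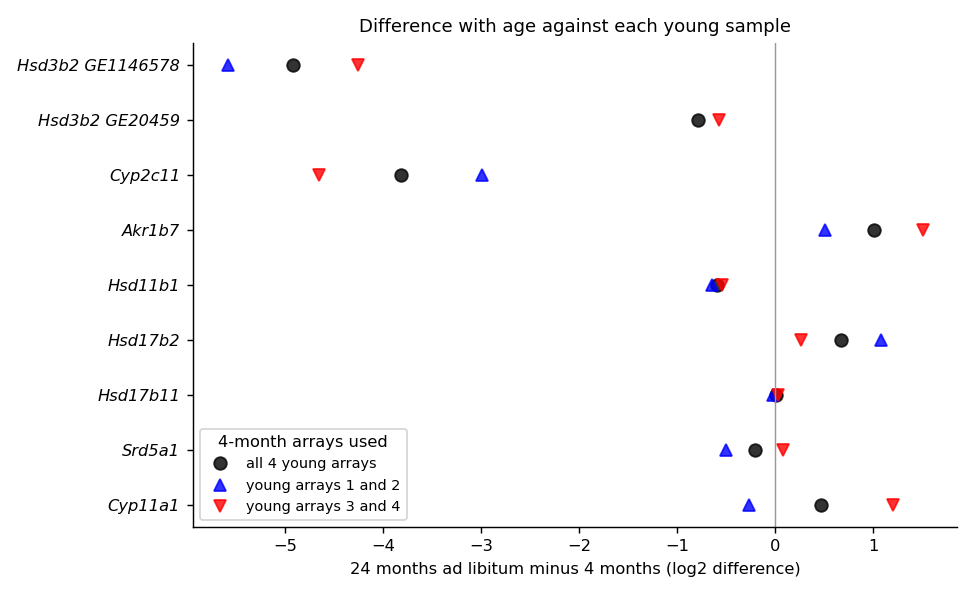
Log2 difference between ad libitum old kidneys and young kidneys for each probe, with all young arrays (circles), arrays 1 and 2 only (upward triangles) and arrays 3 and 4 only (downward triangles). Hsd3b2 GE20459 was not tested against arrays 1 and 2, where it had 1 value. Cyp11a1 and Srd5a1 lie on both sides of 0, while Hsd3b2, Cyp2c11, Akr1b7 and Hsd11b1 stay on one side.

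Marker genes of the organs where these enzymes are best known were read beside them. Of the 10 adrenal genes with a probe, Cyp11b1 and Chgb were above background on no array. The 8 adrenal genes with a value on every array summed to 3767 to 4132 units on restricted arrays, 3777 to 4293 on ad libitum arrays and 4524 to 5743 on young arrays. Mrap alone read 651 to 772, 898 to 990 and 2075 to 2216 in the same order. The other bright genes of the sum, Cyp17a1 and Chga, overlapped between young and old arrays. The sum therefore does not describe the adrenal genes as a set. Of 8 tested, 1 was called higher and 2 lower in ad libitum against young kidneys, and none higher and 2 lower in restricted against young kidneys, with medians of -0.03 and 0.05. The shares over all genes were 24.9% higher and 25.4% lower in the first comparison and 22% and 24.8% in the second. The higher one was Dbh, by 0.23, and the 2 lower ones were Mrap and Cyp21a1. Cyp17a1 was not called at its brightest probe. Its other probe was called lower in restricted than in young kidneys (-0.85, adjusted p 0.0422 over arrays) and than in ad libitum kidneys (-1.06, 0.0429). Mrap, which carries the corticotropin receptor to the cell surface and is also made in fat cells, was lower by -1.21 ± 0.19 in ad libitum and -1.62 ± 0.16 in restricted against young kidneys (adjusted p 2.22e-07 and 3.5e-08 over arrays, 0.0977 and 0.0379 over samples). Of the 12 liver genes, Alb, Ttr and Ahsg were above background on no array, and the 10 with a value on every array summed to 2843 to 3435 on restricted, 3813 to 3997 on ad libitum and 2127 to 3802 on young arrays. Most of this sum was Tf, at 2594 to 3193, 3518 to 3694 and 1924 to 3485 in the same order, so it does not describe the liver genes as a set. Leukocyte genes stood apart by age, where 8 of 9 were called higher in ad libitum than in young kidneys, against 24.9% of all genes. Their sum was 16982 to 18174 on restricted, 17604 to 18584 on ad libitum and 6908 to 7468 on young arrays. Of 4 fat cell genes tested, 2 (Cfd and Fabp4) were called higher and none lower in ad libitum against young kidneys. In restricted against young kidneys the same 2 were called higher and 1 (Adipoq) lower. The part of these cell types in the enzyme results, and of fat cells in the Mrap result, was not tested.

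Other genes of steroid metabolism gave the setting for the 8 enzymes. Each gene was represented by its brightest tested probe, and 64 genes in 6 lists were tested. In ad libitum against young kidneys 14 were called higher and 19 lower, where 24.9% of all 11026 genes were called higher and 25.4% lower, and the median log2 difference was -0.10 against -0.00 for all genes. In restricted against ad libitum kidneys 3 were called higher and 5 lower, where the shares over all genes were 5.61% and 6.72%. In restricted against young kidneys 9 were called higher and 19 lower, where the shares were 22% and 24.8%. Over samples limma called 0 of the 64 in each comparison, with 13, 3 and 17 at an unadjusted p under 0.05 in the 3 comparisons in that order.

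**Figure D4:**
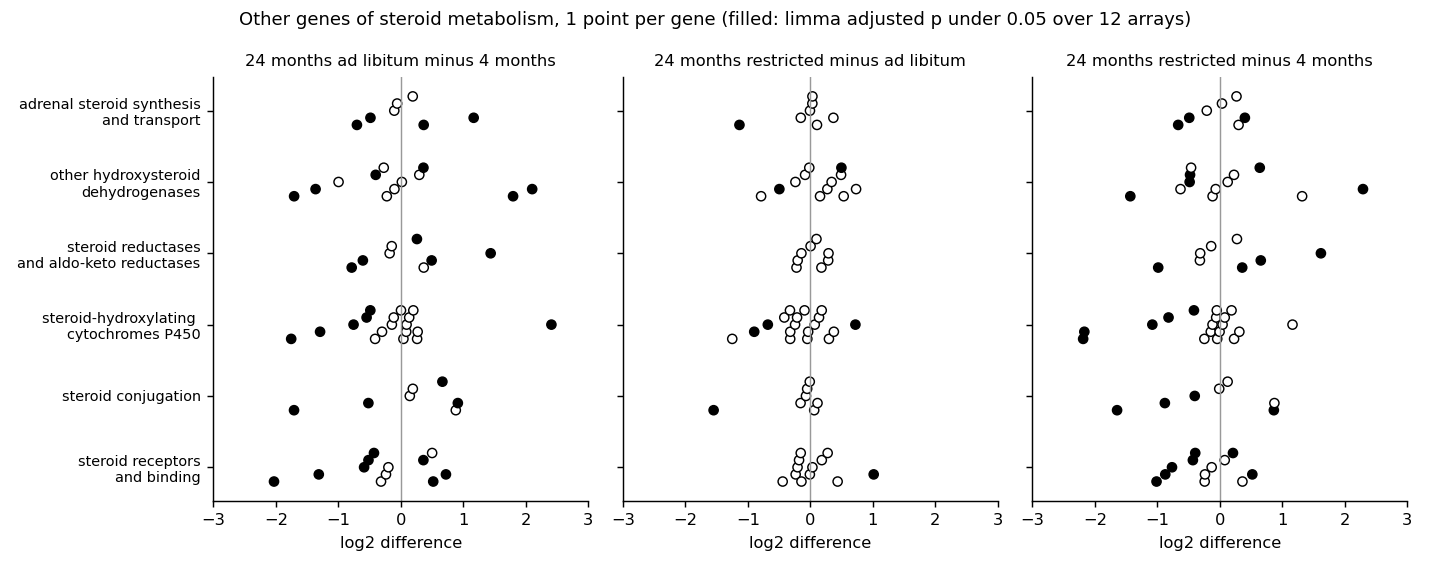
Log2 differences of 64 other genes of steroid metabolism in 6 lists, 1 point per gene, in the 3 comparisons. Filled points passed limma's adjusted threshold over 12 arrays. Called genes lie on both sides of 0 in the comparisons with young kidneys, and 8 of 64 are filled between the old groups.

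Among the steroid-hydroxylating cytochromes P450, 1 of 18 genes was called higher and 5 lower in ad libitum against young kidneys, and none of 18 higher and 5 lower in restricted against young kidneys. The shares over all genes were 24.9% higher and 25.4% lower in the first comparison and 22% and 24.8% in the second. In the first comparison, the 3 called genes with the largest differences were Cyp24a1 and 2 genes of the Cyp2d family, enzymes that hydroxylate drugs and steroids. Cyp2d1 differed by -1.75 ± 0.33 in ad libitum and -2.17 ± 0.27 in restricted against young kidneys (adjusted p 6.57e-06 and 1.49e-06 over arrays). Cyp2d4 differed by -1.29 ± 0.37 and -2.19 ± 0.30 (0.00019 and 4.49e-06), and it was also lower in restricted than in ad libitum kidneys, by -0.90 ± 0.37 (0.00758). Cyp2d genes are close copies of each other, and their probes may share signal. Cyp24a1, which breaks down vitamin D hormone in the proximal tubule, was higher in ad libitum than in young kidneys, by 2.41 ± 0.81 (0.00149).

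Of the 12 other hydroxysteroid dehydrogenases, 3 were called higher and 3 lower in ad libitum against young kidneys, close to the shares over all genes (24.9% and 25.4%). Hsd17b12, which serves fatty acid elongation, was higher by 2.10 ± 1.02 (adjusted p 0.00797 over arrays) and Hsd3b7, a bile acid enzyme, by 1.80 ± 1.08 (0.0246). Rdh16, a retinol dehydrogenase, was lower by -1.71 ± 0.31 (1.32e-05). Hsd11b2, the partner of Hsd11b1 that inactivates glucocorticoid in the collecting duct, was higher in restricted than in ad libitum kidneys by 0.50 ± 0.28 (0.0327), and its other probe, at 0.89, was not called (0.472). Hsd17b4, a peroxisomal enzyme of fatty acid oxidation, was lower by -0.50 ± 0.19 in the same comparison (0.00036).

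Of the 8 steroid and aldo-keto reductases, 3 were called higher and 2 lower in ad libitum against young kidneys, and none of 8 was called between the old groups. The shares over all genes were 24.9% higher and 25.4% lower in the first comparison and 5.61% and 6.72% between the old groups. Akr1b1, the aldose reductase of the same family as Akr1b7, was higher by 1.44 ± 0.67 in ad libitum and 1.62 ± 0.54 in restricted against young kidneys (adjusted p 0.00587 and 0.00318 over arrays). It was not called between the old groups, where Akr1b7 was; whether the 2 genes differ there was not tested. In the adrenal synthesis list, 2 of 7 genes were called higher and 2 lower in ad libitum against young kidneys, near the shares over all genes (24.9% and 25.4%). Cyp21a1, the adrenal steroid hydroxylase, was lower by -0.70 ± 0.21 in ad libitum and -0.67 ± 0.17 in restricted against young kidneys (5.67e-05 and 0.000155). Por, the electron donor of microsomal cytochromes P450, was higher in ad libitum than in young kidneys by 1.17 ± 0.61 (0.0138) and lower in restricted than in ad libitum kidneys by -1.13 ± 0.61 (0.0442).

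In steroid conjugation, 2 of 7 genes were called higher and 2 lower in ad libitum against young kidneys, near the shares over all genes (24.9% and 25.4%). Sult2a1, the sulphotransferase of hydroxysteroids, was lower by -1.71 ± 0.34 in ad libitum and -1.65 ± 0.28 in restricted against young kidneys (adjusted p 3.37e-05 and 4.85e-05 over arrays). Sult1a1, which sulphates phenols, was lower in restricted than in ad libitum kidneys by -1.55 ± 0.40 (0.000501). Of the 12 genes for steroid receptors and binding proteins, 3 were called higher and 5 lower in ad libitum against young kidneys, where the shares over all genes were 24.9% and 25.4%. Serpina6, the corticosteroid-binding globulin, was lower by -2.03 ± 0.20 in ad libitum and -1.01 ± 0.17 in restricted against young kidneys (8.28e-05 and 0.00734), and it was higher in restricted than in ad libitum kidneys by 1.01 ± 0.20 (0.0216).

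The genes most like each enzyme across the arrays were found by Pearson's r of log2 values, given as a description of arrays that share groups and joined samples. Hsd11b1 was most like Ftcd (0.995 over 12 arrays). Akr1b7 was most like Ssc5d (0.986), Tenm4 (0.977) and Tacc3 (0.976). Cyp2c11 was most like Prkaa2 (0.952), and Hsd3b2 GE20459 was most like C11h22orf39 (0.975 over 11 arrays). Srd5a1 was most like Pusl1 (0.975), Cyp11a1 most like Pgm5 (0.959), Hsd17b2 most like Tars1 (0.910) and Hsd17b11 most like Eif2s3 (0.867).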

How the data were processed

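Total kidney RNA was amplified to biotin-labelled cRNA and hybridised to CodeLink whole genome rat arrays, per the labels' protocols. The deposited array reports hold a background-subtracted intensity on a linear scale with a quality flag per spot, per the file headers. The deposited value table holds a ratio, each array's median-scaled intensity over a constant per probe, as found from the values, and served as an alternative. From the intensity, control spots and values flagged as contaminated, irregular or masked were left out and saturated spots kept. The 33849 gene probes were quantile normalised, floored at 7.70 (log2 2.94, from 256 negative control spots) and put on the log2 scale. A probe was tested if above background on at least 4 of 12 arrays with at least 2 values per group, which left 25398 (75%). The dim side of a bound took, per array, the higher of its lowest signal above background and the probe's own.

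limma 3.58.1 (R 4.3.3) was fitted with a mean per group and tested two-sided. The fit was tested on simulated data with known changes. The limit for joining arrays was set after the data were seen, and by the point estimate 4 of the 10 joined pairs would be joined. All probes of the 8 members are named, and of each related list at most the 3 called genes with the largest difference, of which 1 gene is not reported here. Members and lists were chosen with earlier results of these data known. The platform annotation named 16878 probes, accessions 183 and descriptions 22, while 182 had several symbols, and old names can persist. Same-numbered arrays deviated with correlations of -0.178 to 0.157 over 12 pairs, so the numbers do not pair the arrays. Alternatives covered normalisation, value source, filters, floor, marked spots, blocks and arrays left out.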

Additional observations from a re-analysis of the deposited data

Results flagged for a closer look

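Of 26 sets of 4 array values (9 probes in 3 groups, less 1 set with 3 values), 1 held an array far from the other 3. Hsd3b2 GE1146578 was at 3.67 on the log2 scale on ad libitum array 2, with a normalised intensity of 12.7, against the floor of 2.94 on the other 3 (4.12 to 5.91). The gap comes from the floor, which made the other 3 equal: without it, the gap was 0.681 of the range on the log2 scale, under the critical value for 4 values. All 4 values were not above background, and chance alone flags about 1 in 20 such sets.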

How the results depend on the processing

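Over 26 settings, 494 of 538 values for the 9 probes and the counts of calls kept direction and side of the threshold or stayed within 1.5 times. Averaging joined arrays left 29, 0 and 231 probes called in ad libitum against young, restricted against ad libitum and restricted against young kidneys, and 0, 0 and 2 of the 9 enzyme probes, since it tests 5 samples in place of 12 arrays. With slide series as a block, 3901 and 1479 probes were called in the first and the second comparison (12204 and 3397 without it) and 3 enzyme probes in the first. A filter at 8 arrays above background left 3 enzyme probes called in the first, since it drops Hsd3b2 GE1146578 and Cyp2c11. Between the old groups, 2226 probes were called in the deposited table, 1740 without restricted arrays 1 and 3, and 1515 without 2 and 4, and 2 enzyme probes (Akr1b7 and Hsd17b2) under array median scaling, in the deposited table and within one slide series. Within one slide series 3453 probes were called in restricted against young kidneys. The within-series settings and the restricted pairs were added after seeing the data. Hsd17b11 in ad libitum against young kidneys turned from 0.00 to -0.56 under array median scaling and -0.54 in the deposited table, and Cyp11a1 in restricted against young kidneys from 0.31 to -0.42 without young arrays 3 and 4 (called, adjusted p 0.0224), and the cause was not tested. Under median scaling the all-probe median was -0.22 in place of -0.05 for ad libitum and -0.26 in place of -0.02 for restricted against young kidneys, and 28.3%, 43.2% and 24.1% of called probes were higher in the 3 comparisons, in place of 43.6%, 55.3% and 44.6%. Leaving out 1 array at a time gave 10222 to 13336, 2118 to 2648 and 9515 to 12677 probes and 5 to 6, 1 and 5 to 6 enzyme probes. The replicate block gave 11396, 2649 and 10553 probes and 5, 1 and 5 enzyme probes, the last without Hsd17b11. Signal over background limits Hsd3b2, Cyp2c11, Hsd17b2 and Cyp11a1.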
